A study of Mus musculus with 2 samples.

Results

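The H2BK120ub peaks on chromosome 19 that lie outside its clusters of zinc finger genes were examined in liver cells with and without UBR7. A peak was included when it lay on chromosome 19 of the human build hg19 and its midpoint fell outside 5 windows that hold the zinc finger clusters. These windows run from 19800000 to 24300000, from 36600000 to 38400000, from 44300000 to 45000000, from 52300000 to 54000000 and from 56000000 to 58900000. This left 47.5 Mb, or 80.4% of the chromosome. It held 2512 of the 101866 peaks of the WT list and 2669 of the 127444 peaks of the UBR7-KO list, in all 5181 of 229310. With 1.54% of the genome, it held 2.47% of the WT peaks and 6.46% of the length they cover, and 2.09% and 5.51% for UBR7-KO.

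The ubiquitin on this lysine of histone H2B is placed mainly by the E3 ligases RNF20 and RNF40, and UBR7 has been described as a further ligase for this residue. The mark is known to accumulate over the bodies of transcribed genes, where it accompanies the elongating RNA polymerase II. It can therefore form long stretches rather than narrow sites. Human chromosome 19 is known for its high gene density and high GC content, and its zinc finger clusters are known for repressive chromatin.

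The cells were liver primary cells of 2 genotypes, wild type (WT) and Alb-Cre;UBR7fl/fl. In the latter, called UBR7-KO below, Cre under the albumin promoter, which is active in hepatocytes, deletes the floxed UBR7 alleles, so other liver cells would keep the gene. Per the labels, both were conditionally immortalized mouse cells grown in serum-containing medium. Per the study's methods, they came from mice of the C57BL/6 background at 8 weeks of age. Each genotype had 1 ChIP-seq library, so the differences below are between 2 libraries, with no replicate error and no test. Genes, promoters and sequences at the peaks were not analysed here, since the annotation in use covers mouse alone. For the same reason the loss of UBR7 and the markers of hepatocytes were not checked in these lists.

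The labels give mouse as the organism, whereas the peaks carry hg19 positions, and 0 peaks of either list ran past the end of an hg19 chromosome. On chromosome 19 the longest stretch without a peak in either list spanned 3131407 bp, from 24600518 to 27731924. The next longest spanned 179150 bp. The centromere of human chromosome 19 lies in the middle of the chromosome in this region, whereas the centromeres of mouse chromosomes lie at one end. How human positions came from cells labelled as mouse was not tested, and every comparison of the genotypes carries this doubt.

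Nearly the same number of peaks covered clearly less of the chromosome in UBR7-KO. The WT peaks covered 48.9% of the 47.5 Mb (23.2 Mb), and the UBR7-KO peaks covered 36.9% (17.5 Mb), a ratio of 0.755. The ratio of peak numbers was 1.06. Peaks were shorter in UBR7-KO, with a median of 3777 bp (quartiles 1591 and 8825 bp), against 5184 bp in WT (quartiles 2047 and 11705 bp). The ratio of these medians was 0.729. It was also under 1 elsewhere, at 0.699 on chromosome 22, 0.793 on chromosome 17 and 0.859 over the whole lists. Of the chromosome outside the windows, 27.0% lay under peaks of both lists, 21.8% under WT peaks only, 9.87% under UBR7-KO peaks only and 41.3% under none. The shared stretches made up 55.3% of the length covered in WT and 73.3% of that in UBR7-KO.

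The direction of the peak numbers depended on the threshold, but that of the covered share did not under the thresholds tried. Once a fold enrichment of 2.5 or more was required, 457 peaks remained in WT and 152 in UBR7-KO, a ratio of 0.333. They were 18.2% and 5.70% of the members, against 16.9% and 9.77% of the whole lists. On chromosome 17 the shares were 16.2% and 8.08%, and on chromosome 22 they were 15.1% and 5.90%. The ratio of covered shares of the members was 0.0620 at this threshold. It was 0.484 among peaks whose pileup was at least 3 times the background recovered from the fold enrichment. The fold enrichment was taken as the pileup of a peak over the local background of its own library, with 1 added to each. On that reading it depends on depth. Read depth is unknown, and the recovered background had a median of 2.53 over the WT members and 1.60 over the UBR7-KO members. The part of depth in the lower coverage was not tested.

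The chromosome outside the windows was more densely covered than the chromosomes that follow it in rank. The zinc finger windows of the same chromosome were covered by 18.9% in WT and 17.9% in UBR7-KO, a ratio of 0.949. The next chromosomes in covered share were chromosome 17, with 28.1% and 23.4%, and chromosome 22, with 27.4% and 20.2%, with ratios of 0.835 and 0.738. All chromosomes other than 19 together were covered by 11.0% and 9.84%, a ratio of 0.894. The median recovered background also differed between these parts, but not in the order of their coverage. It was 2.30 in WT and 1.45 in UBR7-KO over the peaks of all other chromosomes, both lower than over the members, and 1.99 and 1.31 in the zinc finger windows. On chromosome 17 it was 2.76 and 1.78, higher than over the members.

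The windows mark a change in coverage, whereas the peaks nearest their edges varied widely in length. In the 0.5 Mb outside the window edges, 51.4% was covered in WT and 38.4% in UBR7-KO, against 22.7% and 22.3% in the 0.5 Mb inside them. The peaks closest to the 10 edges had median lengths in WT of 3608 bp outside (301 to 52772 bp) and 3672 bp inside (313 to 16589 bp). In UBR7-KO the medians were 3478 bp (354 to 20588 bp) and 2972 bp (376 to 8426 bp). With 10 peaks per side, these medians cannot show whether peak length changes at the edges. In WT, 4 members reached into a window, and in UBR7-KO 0 did.

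Coverage was then followed in bins of 1 Mb along the chromosome. Bins were counted from the first base, reduced to their part outside the windows and kept when at least 0.5 Mb was left. This gave 48 bins, of which 2, between 25 and 27 Mb, held no peak in either list. In 46 bins at least 1% was covered in one list or the other. Over these, the median covered share was 52.5% in WT (quartiles 39.4% and 69.8%) and 41.7% in UBR7-KO (quartiles 30.2% and 47.5%). The bins kept much of their order, with a Spearman's rho of 0.92 between the lists over 46 bins, which share the base composition and gene content of their place.

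**Figure D1:**
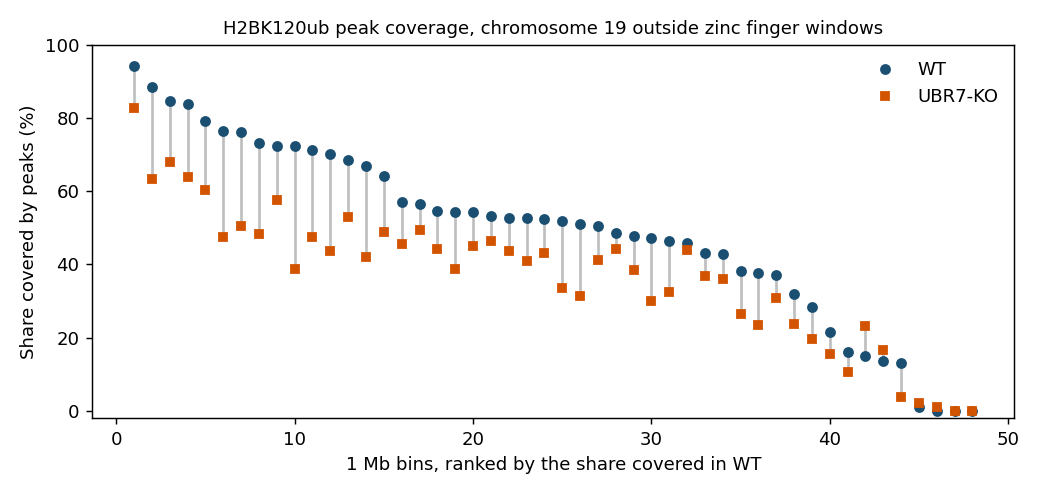
Share of each 1 Mb bin covered by H2BK120ub peaks (y axis, percent) in WT (circles) and UBR7-KO (squares), for the 48 bins of chromosome 19 outside the zinc finger windows, ranked by WT coverage (x axis), with 1 library per genotype. WT lies higher in 42 bins and UBR7-KO in 4, all of them among the sparsely covered bins at the right, and 2 bins are at 0 in both.

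The covered share was lower in UBR7-KO in 42 of the 46 bins (91.3%), whereas over the whole genome it was lower in 42.8% of 2788 such bins. Past 1.5-fold, 12 bins (26.1%) were lower and 3 (6.52%) were higher, against 12.9% and 24.9% of the bins of the genome. The other 31 bins lay within 1.5-fold. Among 45 bins with at least 1% covered in both lists, the median ratio was 0.763 (quartiles 0.664 and 0.828), against 1.09 over the genome. More than 50% of the bin was covered in 27 bins in WT and in 8 in UBR7-KO. Over the genome this was so in 140 bins in WT and 43 in UBR7-KO, of 3093. Outside chromosome 19 the numbers were 114 and 35, so a fall in this count was also seen there.

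Densely covered bins on other chromosomes were also mostly lower in UBR7-KO. Where the mean of both covered shares was 20% to 40%, 88.1% of these bins were lower. At 40% to 60% it was 99.0%, and at 60% or more 97.2%. On chromosome 19 it was 100% in each of these classes. At 20% to 40%, the median ratio was 0.702 over 9 bins of chromosome 19 and 0.719 over 361 bins of other chromosomes. At 40% to 60% it was 0.804 over 20 bins, above the upper quartile of other chromosomes (median 0.705, quartiles 0.593 and 0.768, 97 bins). At 60% or more it was 0.763 over 10 bins, below their lower quartile (median 0.825, quartiles 0.783 and 0.861, 36 bins). In these 2 classes the order of chromosome 19 and the others was thus opposite. Sparsely covered bins leaned the other way. At 1% to 10%, the median ratio was 1.27 over 1752 bins of other chromosomes, whereas chromosome 19 outside the windows held 2 such bins. The part of density in the contrast with the whole genome was not tested.

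**Figure D2:**
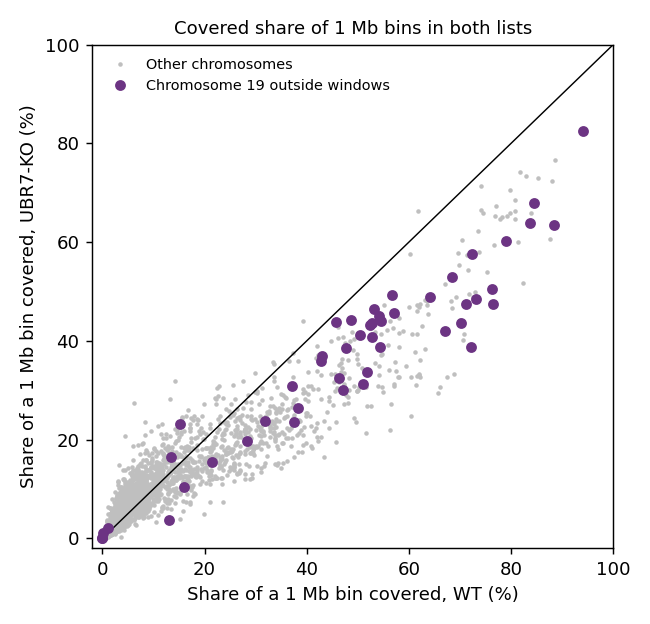
Share of a 1 Mb bin covered in UBR7-KO (y axis, percent) against WT (x axis, percent), for bins of chromosome 19 outside the windows (large points) and of other chromosomes (small points), with the line of equal coverage. The bins of chromosome 19 lie mostly under the line, as do the densely covered bins of other chromosomes.

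The most densely covered bins lay close to the tip of the short arm. Between 1 and 2 Mb, 94.1% was covered in WT by 25 peaks, 18 of them over 10000 bp. In UBR7-KO the same bin was covered by 82.6%, in 45 peaks, and all 45 met a WT peak. Between 3 and 4 Mb the shares were 88.5% and 63.4%, and between 2 and 3 Mb they were 84.5% and 67.9%. Over the first 6 Mb together, 82.6% was covered in WT and 63.6% in UBR7-KO. Here the UBR7-KO list held 306 peaks and the WT list 241, and 94.1% of the UBR7-KO peaks had a WT counterpart.

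The ratio of covered shares was similar on both sides of the peak-free stretch, although coverage itself was not. The short arm was covered by 61.4% in WT and 46.9% in UBR7-KO, a ratio of 0.764. The long arm was covered by 44.7% and 33.4%, a ratio of 0.746. WT peaks had a median length of 7306 bp on the short arm and 4144 bp on the long arm, and UBR7-KO peaks 5279 and 2981 bp. Between the windows of the long arm, the ratio was 0.814 from 38.4 to 44.3 Mb, 0.701 from 45 to 52.3 Mb and 0.839 from 54 to 56 Mb. From the peak-free stretch to 33 Mb, the long arm was covered by 23.6% in WT and 17.9% in UBR7-KO. Here UBR7-KO had more peaks over 10000 bp than WT (24 against 19), as in the first 6 Mb (143 against 139).

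The bins with the lowest WT coverage lay beside the centromere. Between 27 and 28 Mb, 2 WT peaks covered 0.0689% and 8 UBR7-KO peaks covered 1.13%. Between 24 and 25 Mb, where 0.7 Mb lay outside the windows, 7 WT peaks covered 1.06% and 10 UBR7-KO peaks covered 2.16%. Between 28 and 29 Mb the order was opposite, with 13.0% in WT (54 peaks) and 3.70% in UBR7-KO (36 peaks). That ratio of 0.285 was the lowest of the 45 bins. The recovered background was low in these bins as well, with a median of 1.95 in WT and 1.20 in UBR7-KO between 28 and 29 Mb.

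Low ratios were found in bins of very different coverage. Between 49 and 50 Mb, WT peaks covered 72.2% and UBR7-KO peaks 38.7%, a ratio of 0.536. In that bin 25 WT peaks and 16 UBR7-KO peaks were over 10000 bp. Between 14 and 15 Mb the shares were 51.0% and 31.3%, a ratio of 0.614. Less covered bins were also among the 12 past 1.5-fold, such as those between 35 and 36 Mb (37.6% against 23.5%) and between 32 and 33 Mb (ratio 0.655, with UBR7-KO at 10.5%). Higher coverage in UBR7-KO was seen between 9 and 10 Mb, with 15.1% in WT and 23.1% in UBR7-KO (ratio 1.53). It was also seen between 43 and 44 Mb, with 13.5% and 16.5% (ratio 1.22). Among the kept bins, both stood between more densely covered ones in both lists. The bin that follows 44 Mb was left out, however, since a zinc finger window begins at 44.3 Mb. In both bins the lists shared little, 5.97% and 5.25% of the bin.

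Coverage of a bin went with the length of its peaks and not with their number. Over the 45 bins, covered share and median length ranked with a rho of 0.91 in WT and 0.88 in UBR7-KO, whereas covered share and peak number ranked with a rho of -0.25 and -0.11. The covered share adds up the lengths of the peaks in a bin, so it is tied to their length and number by construction. In 20 bins UBR7-KO had more peaks than WT but a lower covered share, a count that was not made over the genome. The median recovered background of a bin also rose with its coverage, with a rho of 0.79 in WT and 0.59 in UBR7-KO. These are correlations across bins of 1 library each, and the bins are not replicates.

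Broad domains, taken as peaks over 10000 bp, were frequent on chromosome 19 outside the windows. They made up 29.7% of the WT members (747 peaks) and 21.5% of the UBR7-KO members (573 peaks), against 7.58% and 3.75% of the whole lists. The next chromosomes in covered share lay between, with 23.5% and 12.7% on chromosome 22 and 18.2% and 9.94% on chromosome 17. They held 71.8% of the covered length in WT and 59.4% in UBR7-KO. In the zinc finger windows 28 WT peaks (3.84%) and 24 UBR7-KO peaks (2.77%) were this long. The ratio of broad domain numbers, UBR7-KO over WT, was 0.767, against 0.602 on all other chromosomes together. On chromosomes 17 and 22 it was 0.704 and 0.635. The ratio over the members reversed to 1.24 when peaks within 5000 bp were merged.

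The ratio fell with length. WT had 437 peaks of 10001 to 20000 bp and UBR7-KO had 410. At 20001 to 50000 bp there were 271 and 157, and over 50000 bp there were 39 and 6. Short peaks went the other way, with 285 peaks under 1000 bp in WT and 417 in UBR7-KO, a ratio of 1.46. The whole lists showed the same trend, with ratios of 1.40 under 1000 bp, 0.456 at 20001 to 50000 bp and 0.169 over 50000 bp, against 0.579 and 0.154 for the 2 longest classes here. At 10001 to 20000 bp the ratio was 0.715 over the whole lists and 0.938 here. UBR7-KO had fewer broad domains than WT in 33 of 46 bins, more in 7 and the same number in 6. Bins of the genome were not counted in this way, and broad domains were also fewer on all other chromosomes together (ratio 0.602).

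**Figure D3:**
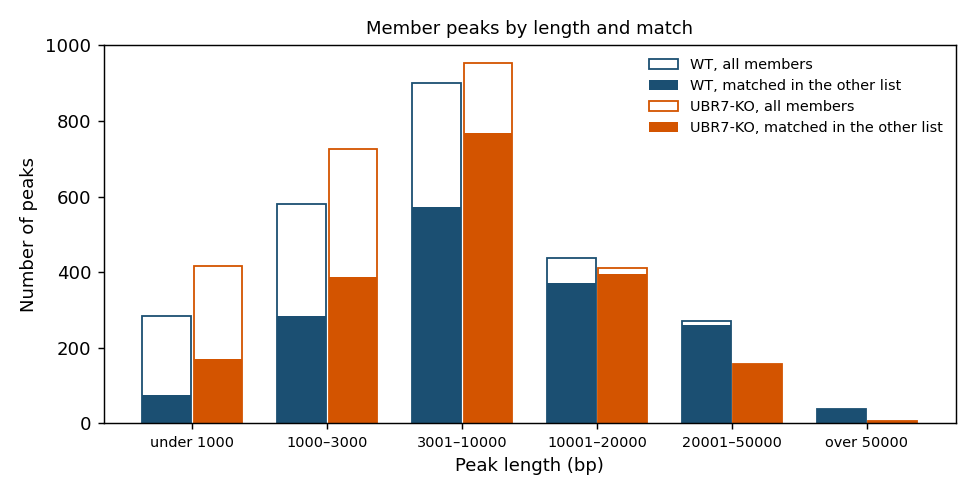
Number of peaks on chromosome 19 outside the windows (y axis) by peak length in bp (x axis), in WT and UBR7-KO, 1 library each; filled bars are peaks that meet a peak of the other list by at least 1 bp. UBR7-KO bars are higher up to 10000 bp and lower above it, and the filled part grows with length, to 39 of 39 and 6 of 6 peaks over 50000 bp. A match of 1 bp is easier for a longer peak by construction.

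The longest WT domains lay in the first 2 Mb of the short arm. The first ran from 565559 to 705833 (140275 bp) and ranked 10 in length among all WT peaks. It met 5 UBR7-KO peaks, which covered 76.9% of it. The second ran from 1198557 to 1326488 (127932 bp) and met 4 UBR7-KO peaks over 96.4% of its length. The third ran from 893861 to 1021246 (127386 bp) and met 5 UBR7-KO peaks over 89.2% of its length. In all 3, the mark was thus called over most of the domain in both libraries, in 1 piece in WT and in several in UBR7-KO.

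The 3 longest UBR7-KO domains each met several WT peaks. The longest ran from 18060177 to 18137157 (76981 bp) and met 7 WT peaks, which covered 79.4% of it. The second, from 1931381 to 2007229 (75849 bp), met 2 WT peaks over 96.0% of its length. The third, from 1293115 to 1355261 (62147 bp), met 3 WT peaks over 90.5%. In the third, one of the 3 WT peaks was the WT domain of 127932 bp described above, which is longer than the UBR7-KO domain itself. Of the 6 UBR7-KO peaks over 50000 bp, 4 met at least 2 WT peaks and 2 met 1.

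Most WT broad domains were still marked in part in UBR7-KO. Of the 747, 77 (10.3%) met no UBR7-KO peak, 299 met 1 and 371 (49.7%) met at least 2, against 14.8% with none and 45.4% with at least 2 over the genome. The median share of a domain covered by UBR7-KO peaks was 62.7% (quartiles 32.6% and 84.7%). At least 50% was covered in 467 domains (62.5%), against 50.8% over the genome. In the other direction, 17 of the 573 UBR7-KO domains (2.97%) met no WT peak and 231 (40.3%) met at least 2, against 5.82% and 35.4% over the genome. WT peaks covered at least 50% of 498 UBR7-KO domains (86.9%), against 80.3%. The other list covers more of chromosome 19 than of the genome, and the part of this in the higher shares was not tested.

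Where a WT domain met several UBR7-KO peaks, the gaps between them were short. There were 597 such gaps with a median of 1570 bp (quartiles 1277 and 3312 bp), and 496 of them (83.1%) were at most 5000 bp. In the deposited lists no neighbouring peaks of chromosome 19 lay closer than 1170 bp in WT or 1098 bp in UBR7-KO, so many gaps were close to the shortest that occurs. The UBR7-KO peaks on these domains had a median length of 7658 bp, and 386 of 968 were themselves broad domains. Over UBR7-KO domains with several WT peaks, the median gap was 1534 bp, over 314 gaps. The 77 WT domains without a UBR7-KO peak had a median length of 13012 bp, against 18698 bp for the matched ones. Their median fold enrichment was 2.21, against 2.35. The nearest UBR7-KO peak was a median of 4249 bp away.

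Coverage by the other list was higher towards the middle of a domain. Each domain was divided into 10 equal parts. UBR7-KO peaks covered on average 59.3% of the central 2 parts of a WT domain and 51.8% of the outermost parts. Just outside the domain they covered 42.2%, and 48.5% at the far end of flanks that were 50% as long as the domain. On other chromosomes these values were 50.4%, 42.8%, 29.0% and 35.3%. For WT peaks over UBR7-KO domains they were 82.5%, 77.4%, 67.3% and 69.7% on chromosome 19. The step at the domain edge was thus small beside the coverage of the surroundings.

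**Figure D4:**
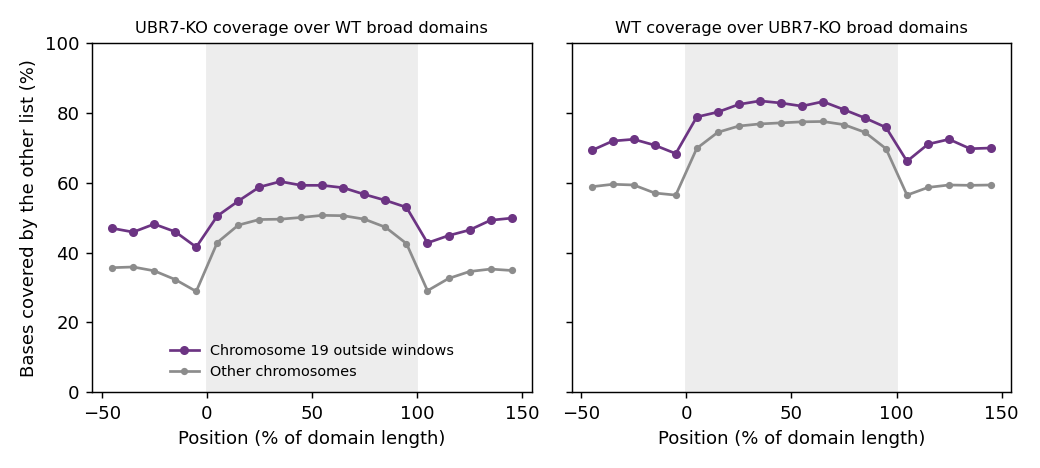
Mean share of bases covered by peaks of the other list (y axis, percent) along broad domains scaled to the same length and their flanks (x axis, percent of domain length, with the domain shaded), for UBR7-KO peaks over WT domains (left) and WT peaks over UBR7-KO domains (right). In both panels coverage is highest inside the domain and lowest just outside it, and chromosome 19 outside the windows lies above other chromosomes throughout.

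By position, 1602 of the WT members (63.8%, 95% Wilson interval 61.9 to 65.6) shared at least 1 bp with the UBR7-KO list, against 40.2% of the whole WT list. Of the UBR7-KO members, 1883 (70.6%, 95% Wilson interval 68.8 to 72.2) met a WT peak, against 35.2% of the whole UBR7-KO list. The next chromosomes in covered share lay between. On chromosome 22, 58.3% of the WT peaks and 58.7% of the UBR7-KO peaks were matched, and on chromosome 17 53.4% and 49.1%. The intervals hold counting error alone and treat peaks in a row as independent, which they are not. Dense coverage by itself brings peaks of both lists together. Within the 48 bins the lists shared 12.7 Mb, which was 1.22 times the 10.4 Mb given by the product of the covered shares of each bin. When at least 50% of both peaks had to overlap, 21.8% of the WT members and 20.5% of the UBR7-KO members were matched.

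Matching rose with length in both lists. Of the WT peaks of 1000 to 3000 bp, 49.1% of the members and 36.4% of the whole list were matched. Of the UBR7-KO peaks of this length, 53.4% and 32.9% were. At 10001 to 20000 bp the shares were 85.1% and 80.9% in WT, and 96.1% and 92.7% in UBR7-KO. In each of the 6 length classes, the members lay closer to the whole list than they did over all lengths. Across bins, UBR7-KO peaks were matched more often than WT peaks in 34 of 45 bins, a count that was not made over the genome. The WT list also covered more of most bins, and the part of this was not tested either.

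Peaks that met only each other formed 686 pairs. The WT peaks of these pairs had a median length of 5143 bp and the UBR7-KO peaks 3802 bp. WT was the longer in 427 pairs (62.2%). On other chromosomes it was the longer in 54.5% of 28976 pairs. The median distance between the midpoints was 1218 bp, and the overlap was a median of 40.6% of the stretch covered by either peak. Lengths within pairs ranked with a rho of 0.48, whereas fold enrichments ranked with a rho of 0.012. Across pairs, the order by fold enrichment in one list was thus almost unrelated to that in the other. On other chromosomes the rho was 0.45 for lengths and 0.13 for fold enrichments. Fold enrichments have a lower limit of 2, and their medians lay near it, at 2.24 over the WT members and 2.14 over the UBR7-KO members.

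The 3 peaks of each list with the highest fold enrichment were short and lay outside the first 6 Mb, although the highest median fold enrichment of a bin in WT was that between 1 and 2 Mb, at 2.65. In WT the first ran from 16044797 to 16045540 (744 bp) with a fold enrichment of 3.74, and the nearest UBR7-KO peak was 3251 bp away. The second, from 42028264 to 42029015 (752 bp), had a fold enrichment of 3.72. Its UBR7-KO counterpart, 650 bp long with a fold enrichment of 3.29, ranked 5 among the UBR7-KO members. The third, from 43725840 to 43726729 (890 bp, fold enrichment 3.71), had a counterpart that ranked 999.

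In UBR7-KO the first ran from 59049205 to 59050462 (1258 bp) with a fold enrichment of 3.78. The WT peak there was 4381 bp long and had a fold enrichment of 2.69. The second ran from 24463734 to 24464956 (1223 bp, fold enrichment 3.71), beside the centromere, at 52321 bp from any WT peak. The third, from 54982223 to 54982956 (734 bp, fold enrichment 3.68), lay wholly within a WT peak of 5435 bp. Only 1 of these 6 peaks, the second of WT, had a counterpart of similar length and rank.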

How the data were processed

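H2BK120ub ChIP-seq peak lists of 1 WT and 1 UBR7-KO library were used, grouped by the genotype in the labels. Per the study's methods, the authors aligned reads to hg19 with BWA aln, whereas the submitters' processing notes name FastQC and Bowtie 1.1.2. The authors ran MACS separately on the libraries. Its q-value threshold, control and mode are not given in the sources used here. The study's methods also name rabbit IgG in the ChIP, and a list per mark of peaks that recurred at least 2 times. Whether the IgG or that selection entered the deposited lists is not stated. The deposited pileup is a signal that depends on depth, which is unknown. The deposited fold enrichment, with no value under 2, was taken as a ratio, the pileup over the local background of the same library. The background was recovered from it as the pileup plus 1 over the fold enrichment, minus 1. Whether this form holds for these lists was not tested, since the mode is not given.

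Peaks were used as deposited, apart from 6 blank lines in the UBR7-KO list that were dropped. Positions count from 1. Chromosome lengths came from GenomeInfoDb 1.38.1. Computation used Python 3.11.15, numpy 2.4.6, pandas 2.3.3 and scipy 1.17.1. On simulated peaks, the interval code gave 0 differences from a count base by base.

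A match was an overlap of at least 1 bp. A bin was called lower or higher past 1.5-fold when the larger covered share was at least 1%. Bins over the genome were not reduced by windows. The peaks named are the 3 longest and the 3 strongest by fold enrichment per list, and the bins named are the 3 at either end of WT coverage (at least 1% in one list) and of the ratio (at least 1% in both). The members, lists and thresholds were chosen with earlier results of these data known, and the comparison of equally dense bins was added after the bin values were seen. With 1 library per genotype no test was run.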

Additional observations from a re-analysis of the deposited data

How the results depend on the processing

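Of 47 alternative values of the 7 main results, 26 stayed within the limits set for them, 19 moved and 2 reversed. Limits were 1.5 times the value, or the 95% Wilson interval for shares of peaks and bins. A fold enrichment of at least 2.5 reversed the ratio of peak numbers to 0.333 and moved the ratio of covered share to 0.0620, the bins lower in UBR7-KO to 97.7%, the ratio of broad domain numbers to 0.0400, the matched members to 5.91% (WT) and 18.4% (UBR7-KO), and the median share of a WT broad domain covered to 0%. Keeping peaks whose pileup reached 3 times the recovered background moved the ratio of covered share to 0.484, the bins to 72.7%, the ratio of broad domain numbers to 0.442, the matched members to 29.0% and 25.4%, and the median share of a domain covered to 0%. Both thresholds leave fewer peaks by construction.

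Merging peaks within 5000 bp reversed the ratio of broad domain numbers to 1.24 (WT 449, UBR7-KO 556) and moved the matched WT members to 67.8%. The cause was not tested. An overlap of 50% of the counted peak gave 45.5% in WT and 59.8% in UBR7-KO, and 50% of both peaks gave 21.8% and 20.5%. Lists of equal size gave 60.5% in WT. With bins of 2 Mb, all 22 bins (100%) were lower in UBR7-KO. Widening the windows by 0.5 Mb or leaving out the outer 2 Mb moved none of the 7 results past its limit. No paired analysis was possible because only 1 library per genotype exists in these data, which also leaves no replicate to omit.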

Other observations

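Strength and length were related differently within the lists. In WT, the 252 members with the highest fold enrichment (the top 10%) had a median length of 4396 bp and were matched in 73.4% of cases, whereas the 252 with the lowest had a median of 3140 bp and were matched in 53.6%. In UBR7-KO the order was opposite: the 267 members with the highest fold enrichment had a median of 1849 bp and were matched in 65.2%, against 4444 bp and 73.4% for the 267 with the lowest. Broad domains had a median fold enrichment of 2.33 in WT and 2.12 in UBR7-KO, and peaks under 1000 bp had 2.21 and 2.18. The recovered background moved with length in both lists, from 2.26 under 1000 bp to 2.63 in broad domains in WT, and from 1.46 to 1.65 in UBR7-KO. Its part in the difference was not tested.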
